A study of Mus musculus with 3 samples.

Results

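The 7 MHC class II presentation genes H2-Aa, H2-Ab1, H2-Eb1, Cd74, Ciita, H2-DMa and H2-DMb1 were followed through the leukocytes of 2208L mouse mammary tumours. They were taken by symbol from the 28692 genes of the count tables, and each symbol had 1 row. All 3 single-cell RNA libraries, called libraries 1, 2 and 3, belong to 1 group. The cells of each were live leukocytes, sorted as DAPI-negative and CD45-positive, from tumours grown for 4 weeks after 2208L tumour cells were put into the mouse mammary gland, and the tumours measured 0.7 to 1 cm across. The labels do not tie the libraries to separate mice. Every p-value here measures how differences between kinds of cells vary over these 3 libraries, and that spread may be technical. The strain and age of the mice are not given, and all comparisons are between kinds of cells within the same libraries.

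MHC class II molecules sit on the surface of antigen-presenting cells and show peptides from endosomes to CD4 T cells. H2-Aa and H2-Ab1 encode the alpha and beta chains of I-A, H2-Eb1 encodes the beta chain of I-E, and Cd74 encodes the invariant chain that fills the groove until the molecule reaches the endosome. H2-DMa and H2-DMb1 encode the DM heterodimer, which exchanges the leftover invariant-chain fragment for peptide, and Ciita encodes the transactivator that switches the whole set on. Dendritic cells, macrophages and B cells are the classical carriers, while mouse T cells are not known to transcribe class II. Conventional dendritic cells (cDC) come in a cDC1 and a cDC2 kind, and dendritic cells that have matured and carry Ccr7 are called migratory.

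On mouse build GRCm38, 5 of the genes lie together on chromosome 17. H2-DMa lies at chr17:34119541-34139101 and H2-DMb1 at chr17:34153072-34160230. H2-Ab1 lies at chr17:34257689-34269419, H2-Aa at chr17:34282744-34287823 and H2-Eb1 at chr17:34305867-34316674. H2-Aa is on the minus strand and the others are on the plus strand. Ciita lies on the plus strand of another chromosome, at chr16:10480059-10528418. The 120 bases before the RefSeq start sites of H2-Aa and H2-Eb1 (GRCm38.p6) are shown. These 2 genes were chosen because their levels correlated at r = 0.99 over the cell classes and parted in a neutrophil state described below. Capitals mark TGATTGG, the Y-box core of class II promoters, and TGATGCT, whose second copy in H2-Eb1 runs into TGATTGG with 1 shared base.
H2-Aa, chr17:34287824-34287943, minus strand: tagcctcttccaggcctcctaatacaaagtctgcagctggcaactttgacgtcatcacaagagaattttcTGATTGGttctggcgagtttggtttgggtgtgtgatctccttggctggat
H2-Eb1, chr17:34305747-34305866, plus strand: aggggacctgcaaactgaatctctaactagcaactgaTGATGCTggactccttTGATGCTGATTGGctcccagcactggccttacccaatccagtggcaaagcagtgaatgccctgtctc
TGATTGG was found 50 bases before the start of H2-Aa and 61 before that of H2-Eb1. On either strand it occurs in 7.23% of all 32851 windows of 250 bases before RefSeq starts. TGATGCT occurs in 3.53% of them, and it was found in the window of H2-Eb1 but not in that of H2-Aa. A match is a description of letters and not of binding. The window of H2-DMb1 also holds both motifs, and those of H2-DMa hold neither.

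The deposited tables hold 14336 barcodes with 9846404, 15259236 and 9445914 counted RNA molecules (unique molecular identifiers, UMIs) in libraries 1, 2 and 3. After filtering, 4380, 6007 and 3838 barcodes stayed, with a median of 1239, 1549 and 1318 UMIs each. The label gives the cell type as tumour, but 273 barcodes were epithelial-like and the others carried leukocyte transcripts or stayed unnamed. Barcodes were clustered without the class II genes, and clusters were named "X-like" from markers that hold no MHC gene. This gave 6150 neutrophil-like, 3192 T-cell-like, 1655 macrophage-like, 524 NK-cell-like, 393 cDC2-like, 341 monocyte-like, 210 plasmacytoid-DC-like, 142 cDC1-like, 95 migratory-DC-like and 77 B-or-plasma-cell-like barcodes, and 1173 barcodes stayed unnamed. Since the classes, and the clusters and neutrophil states within them, were formed from the other genes of the same barcodes, class II genes that vary with those genes also vary between classes. Between 25 and 37 barcode sequences were shared by each pair of libraries. Levels below are UMIs of a gene per 1000000 UMIs (CPM) after summing the barcodes of a class within a library, and tests use those sums, with the library as a block. All named classes were fitted jointly, and so were all neutrophil states. The spread behind a p-value is therefore estimated over all sums of a fit, not only those compared. Fewer cells that carry a gene and less RNA per cell cannot be told apart in such sums.

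All 7 genes had their highest mean in cDC2-like barcodes. Summed over the genes, class II made up 54776 ± 4351 CPM in cDC2-like and 47271 ± 344 CPM in cDC1-like barcodes (SD, n = 3 libraries), which is 5.48% and 4.73% of their UMIs. Migratory-DC-like barcodes held 30459 ± 9655 CPM, macrophage-like 28357 ± 7469 CPM, B-or-plasma-cell-like 21007 ± 4611 CPM and monocyte-like 19882 ± 2429 CPM. Plasmacytoid-DC-like barcodes held 7987 ± 3725 CPM. The 4 remaining classes lay far below, at 735 ± 236 CPM in neutrophil-like, 678 ± 515 CPM in NK-cell-like, 475 ± 330 CPM in epithelial-like and 471 ± 165 CPM in T-cell-like barcodes, and their ranges over libraries overlapped. Because macrophage-like barcodes were many, they supplied 41.9% of all class II UMIs, against 18.9% from cDC2-like, 5.88% from cDC1-like and 0.784% from neutrophil-like barcodes, although the last were the most numerous.

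**Figure D1:**
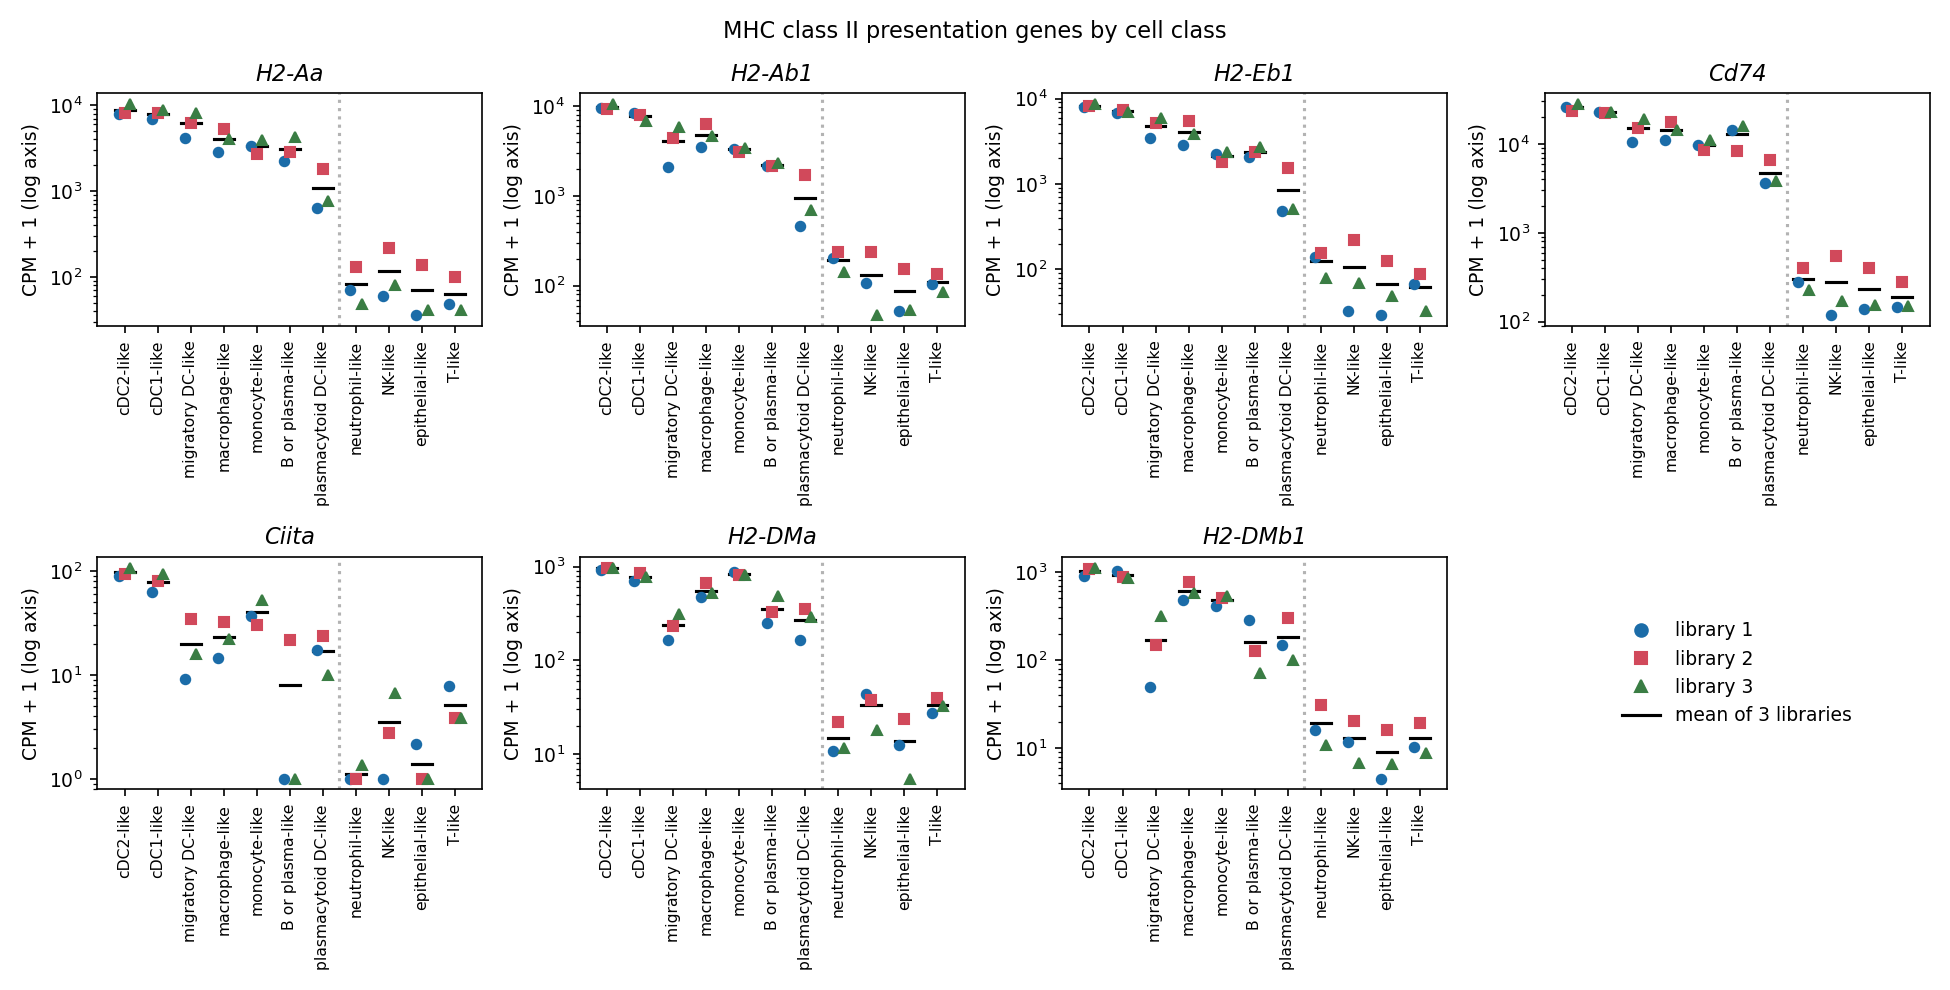
Level of each of the 7 genes as CPM + 1 on a log axis in 11 cell classes, with 1 point for each of the 3 libraries and a line at their mean. The 7 classes left of the dotted line lie above the 4 classes right of it in every library for the 4 chain genes, while Ciita overlaps across the line in B-or-plasma-cell-like barcodes.

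The invariant chain gene Cd74 gave the most UMIs of the 7. It reached 25973, 23636 and 28040 CPM in cDC2-like barcodes of libraries 1, 2 and 3, and 23041, 22369 and 23082 CPM in cDC1-like barcodes. Macrophage-like barcodes held 10921, 17655 and 14294 CPM, and migratory-DC-like barcodes 10529, 15102 and 19143 CPM. Each library thus had its cDC values above its macrophage value, and the migratory and macrophage ranges overlapped. T-cell-like barcodes held 145, 278 and 150 CPM.

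The I-A chain genes were likewise highest in cDC2-like and next in cDC1-like barcodes. H2-Aa averaged 8822 ± 1308 CPM in cDC2-like, 7935 ± 856 CPM in cDC1-like, 4048 ± 1193 CPM in macrophage-like and 62.4 ± 32.1 CPM in T-cell-like barcodes. H2-Ab1 averaged 9741 ± 660 CPM in cDC2-like, 7632 ± 803 CPM in cDC1-like, 4801 ± 1380 CPM in macrophage-like and 108 ± 24.6 CPM in T-cell-like barcodes. The I-E chain gene H2-Eb1 averaged 8252 ± 348 CPM in cDC2-like and 4033 ± 1295 CPM in macrophage-like barcodes. The ranges of cDC2-like and cDC1-like barcodes overlapped for H2-Aa and did not overlap for H2-Ab1 or H2-Eb1. The alpha-chain partner of H2-Eb1 was not analysed here.

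The 4 chain genes varied together over the 11 classes. Over the 33 class sums, H2-Aa correlated with H2-Ab1 at r = 0.98, with H2-Eb1 at r = 0.99 and with Cd74 at r = 0.99 on the log2(CPM + 10) scale, a description over sums that share libraries. H2-Eb1 gave 0.65 to 1.00 UMIs per H2-Aa UMI in the 10 classes other than neutrophil-like barcodes. The genes outside the gene lists used here whose levels were most like the mean of the 4 chain genes over the same 33 sums were Irf5, Cst3, Gdi2, Hfe, BC028528, Cd83, Cbfa2t3, Plekho1, Gm6377 and Pkib, with r between 0.81 and 0.85. For Ciita they were Batf3, Gm2a, Plbd1, Ckb and Gdi2, with r between 0.83 and 0.84.

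Ciita was rare and followed another order. It averaged 96.4 ± 9.59 CPM in cDC2-like, 78.0 ± 15.2 CPM in cDC1-like, 39.1 ± 11.3 CPM in monocyte-like, 22.1 ± 9.0 CPM in macrophage-like and 19.0 ± 13.3 CPM in migratory-DC-like barcodes. It gave 1 UMI in all 6150 neutrophil-like barcodes, in library 3, against 22 UMIs in 3192 T-cell-like barcodes. In B-or-plasma-cell-like barcodes it gave 0, 2 and 0 UMIs in the 3 libraries, which the 24, 40 and 13 barcodes of that class limit. Neighbours in this order had overlapping ranges, apart from the step between cDC1-like and monocyte-like barcodes.

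The DM genes gave far fewer UMIs than Cd74. H2-DMa averaged 952 ± 26.2 CPM in cDC2-like, 832 ± 40.2 CPM in monocyte-like, 778 ± 75.9 CPM in cDC1-like and 553 ± 98.6 CPM in macrophage-like barcodes. H2-DMb1 averaged 1029 ± 121 CPM in cDC2-like, 918 ± 99.7 CPM in cDC1-like and 610 ± 148 CPM in macrophage-like barcodes. Monocyte-like barcodes therefore stood second for H2-DMa and not for H2-DMb1, where they held 481 ± 61.2 CPM. The counts of H2-DMb1 are uncertain to the extent that reads fell on bases shared with its near copy H2-DMb2: 26.6% of the 50-base windows of the H2-DMb1 transcript also occur in H2-DMb2.

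Against T-cell-like barcodes, every antigen-presenting class carried more class II RNA. The edgeR quasi-likelihood test called all 7 genes higher in macrophage-like, monocyte-like, cDC1-like, cDC2-like, migratory-DC-like and plasmacytoid-DC-like barcodes. In these 6 comparisons 29%, 20.6%, 14.9%, 22.8%, 14.7% and 16.6% of the 8437 genes tested were called higher at an adjusted p under 0.05, and all share the T-cell-like sums. Cd74 differed by log2 values of 7.16 (SE 0.32) for cDC2-like, 6.19 (SE 0.30) for macrophage-like and 4.37 (SE 0.28) for plasmacytoid-DC-like barcodes. In B-or-plasma-cell-like barcodes 6 genes were higher and Ciita did not pass (log2 1.51, SE 1.32), where 3.11% of all genes were called higher. In NK-cell-like barcodes none of the 7 was called by edgeR or by DESeq2, where edgeR called 9.02% in either direction. At an unadjusted p under 0.05 edgeR gave 3 genes there, H2-Aa (log2 0.99, SE 0.35), H2-Eb1 (log2 0.88, SE 0.37) and Cd74 (log2 0.58, SE 0.28). Their levels in NK-cell-like barcodes were highest in library 2, and the ranges overlapped those of T-cell-like barcodes.

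Plasmacytoid-DC-like barcodes need their libraries named. Library 2 held 161 of the 210, and there Cd74 reached 6540 CPM, against 3601 and 3811 CPM in libraries 1 and 3, and H2-Aa 1809 CPM against 644 and 769 CPM. The same 161 barcodes held 1519 UMIs of the macrophage complement genes C1qa, C1qb and C1qc, against 11 and 6 UMIs in libraries 1 and 3, and the whole macrophage marker list summed to between 226 and 6299 CPM over libraries. The part of those transcripts in the class II level was not tested. Without library 2, Ciita was no longer called against T-cell-like barcodes (log2 0.96). All 7 genes were lower than in cDC2-like barcodes, by between 1.96 and 3.57 on the log2 scale, where 12% of all genes were called lower. All 7 were also lower in B-or-plasma-cell-like than in cDC2-like barcodes, with log2 differences between -3.01 and -1.30, where 8.51% were called lower.

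The question of which phagocytes carry most class II was put to 3 comparisons. cDC2-like barcodes were higher than macrophage-like barcodes for all 7 genes, where 12.4% of all genes were called higher. Ciita differed most, with 89.4, 92.6 and 107 CPM in cDC2-like and 13.6, 31.5 and 21.2 CPM in macrophage-like barcodes (log2 2.15, SE 0.22, edgeR quasi-likelihood adjusted p = 2.6e-11). H2-Aa followed at log2 1.25 (SE 0.25), H2-Eb1 at 1.16 (SE 0.26), H2-Ab1 at 1.14 (SE 0.25), Cd74 at 0.97 (SE 0.24), H2-DMa at 0.85 (SE 0.16) and H2-DMb1 at 0.83 (SE 0.20). The groups did not overlap for any of the 7. When each barcode was instead assigned to a class by its own marker UMIs, Ciita alone was still called, and H2-Ab1, H2-Eb1, Cd74, H2-DMa and H2-DMb1 turned to between -0.55 and -0.06, none of them called.

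The rest of the presentation machinery split in that comparison. The other class II chains measured, 3 of 3, were higher in cDC2-like barcodes: H2-Oa and H2-Ob, which encode the DO dimer that restrains DM, by 5.86 and 3.59 on the log2 scale, and H2-DMb2 by 2.91. Of 8 endosomal processing genes tested, 5 were lower and 1 was higher, where 12.1% of all genes were called lower. The legumain gene Lgmn had 201 ± 20.6 CPM in cDC2-like and 2001 ± 162 CPM in macrophage-like barcodes (log2 -3.29), and the cathepsin genes Ctsl, Ctsb and Ctsd had log2 differences of -3.25, -3.02 and -2.76. The median over those 8 genes was -1.84, against -0.02 over all genes tested. Of the regulators, Irf4 (log2 2.92) and Jak2 (log2 2.81) were higher and Prdm1 (log2 -2.40) and Irf8 (log2 -1.42) lower, among 3 higher and 2 lower of 16 tested. The costimulatory genes Cd80 (log2 1.93) and Cd86 (log2 0.80) were higher.

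Macrophage-like against monocyte-like barcodes gave little that held. H2-Eb1 was higher, with 2857, 5420 and 3823 CPM in macrophage-like and 2222, 1824 and 2385 CPM in monocyte-like barcodes (log2 0.87, SE 0.26, edgeR adjusted p = 0.0151). H2-DMa was lower, with 474, 663 and 522 CPM in macrophage-like and 878, 804 and 814 CPM in monocyte-like barcodes (log2 -0.56, SE 0.17, edgeR adjusted p = 0.0132). The other 5 genes were not called, where 17.3% of all genes were called in either direction. Both calls were lost with DESeq2 and without the block, and H2-Eb1 came to -0.06 when the class II genes were kept in the clustering.

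cDC1-like and cDC2-like barcodes did not differ detectably in any of the 7 genes, with log2 differences between -0.24 (H2-Ab1, SE 0.25) and -0.03 (H2-DMb1, SE 0.21), where 10.8% of all genes were called in either direction and DESeq2 called none of the 7 either. At an unadjusted p under 0.05 edgeR gave 0 of the 7. The CPM ranges of H2-Ab1, H2-Eb1, Cd74 and H2-DMa did not overlap, with cDC1-like barcodes lower. With barcodes assigned by their own markers, H2-Aa, H2-Eb1, H2-DMa and H2-DMb1 were called higher in cDC1-like barcodes, by 0.87 to 0.96. Other genes of antigen presentation did differ between the classes named from clusters. H2-DMb2 (log2 -1.74), H2-Oa (log2 -1.26) and the cathepsin S gene Ctss, whose product trims the invariant chain (log2 -2.21), were lower in cDC1-like barcodes. Of 12 MHC class I pathway genes 5 were higher in cDC1-like barcodes, where 4.58% of all genes were called higher, with Psmb9 (log2 1.41), Tap2 (log2 1.38), Psme1 (log2 1.23) and Tap1 (log2 1.09) in front.

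The 2 DM beta-chain genes had opposite levels in the 2 cDC2-like clusters. The 2 cDC2-like clusters, one of 254 barcodes led by Epcam and Plet1 and one of 139 barcodes led by Cd209a, held similar summed class II levels of 56640 and 50693 CPM. H2-DMb1 averaged 718 ± 53.5 CPM in the Epcam-led and 1642 ± 47.3 CPM in the Cd209a-led cluster. Its near copy H2-DMb2 went the other way, with 1356, 1055 and 1429 CPM in the Epcam-led and 283, 379 and 301 CPM in the Cd209a-led cluster, and the ranges did not overlap. H2-DMb1 thus made up 37.3% of the 2 beta-chain genes' UMIs in the Epcam-led cluster and 82.9% in the Cd209a-led cluster, with 33.1%, 42.4% and 33.1% against 85.0%, 81.1% and 84.9% in libraries 1, 2 and 3. The share was 82.0% in macrophage-like, 84.2% in monocyte-like, 77.4% in cDC1-like, 32.7% in migratory-DC-like and 17.7% in B-or-plasma-cell-like barcodes. H2-Oa stood at 255 ± 38.0 CPM in the Epcam-led and 40.9 ± 14.9 CPM in the Cd209a-led cluster. This pair was singled out after its values were seen, so no test is given, although the clusters were formed without any class II gene, and reads on the shared windows could be split in either way by the counting.

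Migratory-DC-like barcodes held less DM and Ciita RNA than cDC1-like and cDC2-like barcodes, with smaller differences in chain RNA. Against the mean of cDC1-like and cDC2-like barcodes, 6 of the 7 genes were lower, where 8.52% of all genes were called lower. H2-DMb1 had 49.0, 147 and 314 CPM in migratory-DC-like barcodes, against 962, 977.5 and 981 CPM for the cDC mean (log2 -2.75, SE 0.29, edgeR adjusted p = 9.6e-11). H2-DMa had 163, 231 and 314 CPM, against 813, 908 and 875 CPM (log2 -1.92, SE 0.21), and Ciita had 8.16, 33.8 and 14.9 CPM, from 1, 6 and 1 UMIs, against 75.9, 85.7 and 100.1 CPM (log2 -1.92, SE 0.49). Every library was lower and the groups did not overlap for these 3 genes. H2-Ab1 was lower by log2 -1.13 (SE 0.23), Cd74 by -0.74 (SE 0.22) and H2-Eb1 by -0.70 (SE 0.24), and H2-Aa at -0.49 (SE 0.23) was not called (edgeR adjusted p = 0.149). The calls of Cd74 and H2-Eb1 were lost with DESeq2, without the block and without library 1, and with barcodes assigned by their own markers H2-DMa and H2-DMb1 alone were still called. The median over all genes in this comparison was -0.17, so changes are read relative to it.

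**Figure D2:**
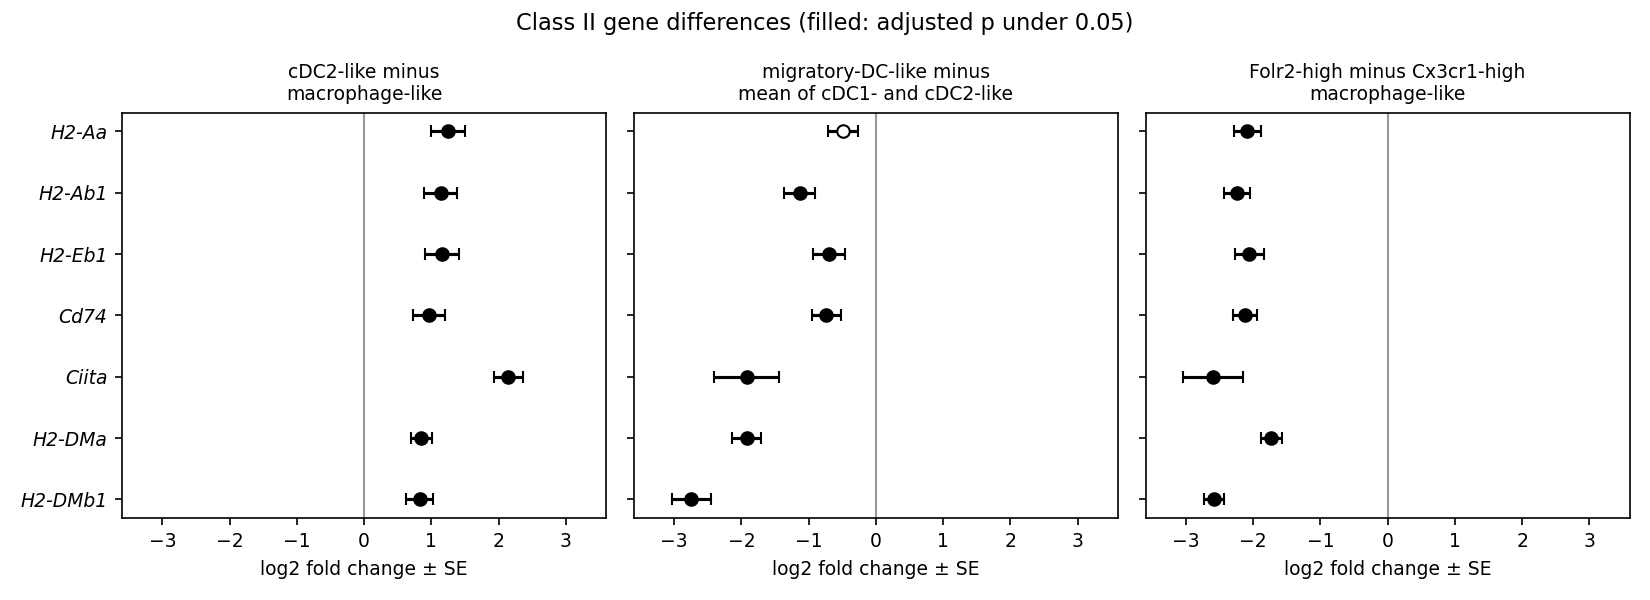
Log2 fold changes of the 7 genes with their standard errors in 3 comparisons, filled where the adjusted p was under 0.05. In the middle panel H2-DMa, H2-DMb1 and Ciita lie further below 0 than the chain genes, while in the right panel all 7 lie between -2.60 and -1.73.

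Counted against H2-Aa within the same barcodes, H2-DMb1 gave 0.0119, 0.0234 and 0.0385 UMIs per H2-Aa UMI in migratory-DC-like barcodes of libraries 1, 2 and 3. The same ratio was 0.112, 0.131 and 0.108 in cDC2-like and 0.147, 0.109 and 0.0968 in cDC1-like barcodes. These ratios do not depend on the scaling between libraries, and the migratory values lay below those of cDC2-like and cDC1-like barcodes in each library. Other genes rose in the same barcodes: the costimulatory genes Cd40 (log2 2.27) and Cd80 (log2 2.26), the class I heavy chain gene H2-K1 (log2 1.04) and Jak2 (log2 1.85). March1, whose product marks class II molecules for removal from the surface, gave no UMI in 95 migratory-DC-like barcodes and 61.0 ± 5.80 CPM for the cDC mean. Macrophage markers summed to 2607 CPM on average in migratory-DC-like barcodes, with 10 of 11 detected, against 378 CPM in cDC1-like and 2032 CPM in cDC2-like barcodes, and their part was not tested.

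Macrophage-like clusters differed widely from each other. The cluster with the highest level of the Folr2 marker set, 215 barcodes led by Ccl8 and Lyve1, was lower than the cluster with the highest Cx3cr1 marker set, 494 barcodes led by Tmem119 and Cd72, for all 7 genes. In this comparison 15.2% of all genes were called lower. Cd74 had 6280, 6230 and 3123 CPM in the Folr2 cluster and 16016, 25319 and 23545 CPM in the Cx3cr1 cluster (log2 -2.12, SE 0.18, edgeR adjusted p = 1.6e-10). Ciita had 2.79, 10.7 and 3.0 CPM in the Folr2 cluster and 22.3, 45.5 and 39.8 CPM in the Cx3cr1 cluster (log2 -2.60, SE 0.45). H2-DMb1 was lower by log2 -2.59 (SE 0.15) and H2-DMa by -1.73 (SE 0.16). No gene's ranges overlapped between the clusters.

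Other presentation genes moved both ways between the Folr2 and Cx3cr1 clusters. H2-DMb2 (log2 -2.25), Ctss (log2 -1.13), Irf8 (log2 -1.23), Ifngr2 (log2 -1.26) and Cd86 (log2 -1.01) were lower in the Folr2 cluster. Ctsl (log2 1.72), Irf1 (log2 1.43), Jak1 (log2 1.15), H2-K1 (log2 0.73) and Cd40 (log2 0.79) were higher there. Of 11 class I genes 2 were higher, where 17.4% of all genes were called higher, and 2 were lower, and their median was 0.16 against -0.01 over all genes tested.

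**Figure D3:**
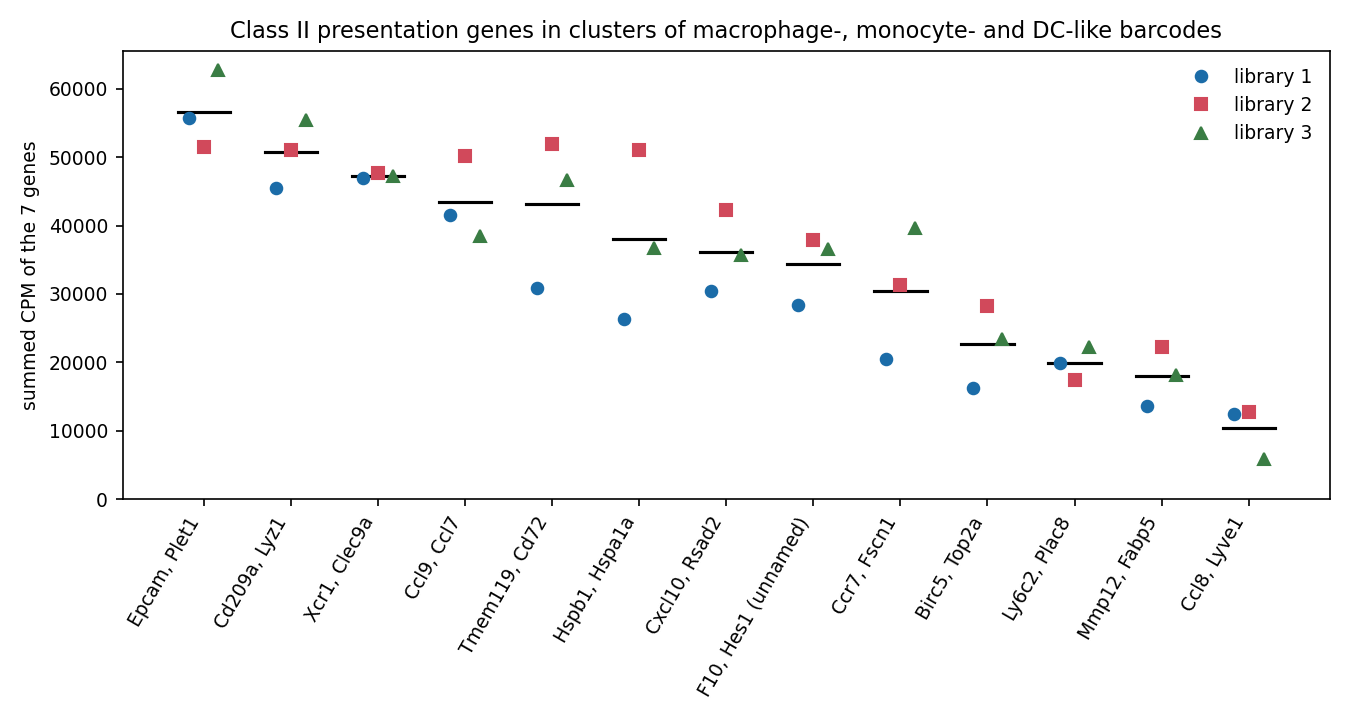
Summed CPM of the 7 genes in 13 clusters of macrophage-, monocyte- and dendritic-cell-like barcodes, of which the one led by F10 and Hes1 took no class name, each labelled with 2 of its leading genes, with 1 point for each of the 3 libraries and a line at their mean. Levels run from 56640 CPM in the Epcam-led cluster to 10337 CPM in the Ccl8- and Lyve1-led cluster.

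Over all macrophage-like clusters the summed level ran from 43403 CPM in a cluster led by Ccl9 and Ccl7 and 43135 CPM in the Cx3cr1 cluster to 18005 CPM in one led by Mmp12 and Fabp5 and 10337 CPM in the Folr2 cluster. The Mmp12-led cluster also held the most Pdpn of these clusters, with 85.4, 53.0 and 65.1 CPM. Single barcodes spread as widely. At an equal depth of 2000 UMIs, macrophage-like barcodes held a median of 50 class II UMIs, with an interquartile range of 16.75 to 92, and 27.3% of them held fewer than 20. Monocyte-like barcodes had a median of 15, and 52.7% held fewer than 20. The medians were 93 in cDC2-like and 83 in cDC1-like barcodes, where 2.66% and 0% held fewer than 20. In the Folr2 cluster the median was 10 and in the Cx3cr1 cluster 79.5.

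Neutrophils are not classical carriers of class II, and their class II UMIs were read against T-cell-like barcodes as a reference. Whether T-cell-like barcodes show the level of free RNA was not tested. Pooled over libraries, H2-DMa gave 0.0570 UMIs per T-cell-like barcode, against 0.0141 per neutrophil-like barcode. The C1q genes gave 0.188, 0.316 and 0.124 UMIs per T-cell-like barcode in libraries 1, 2 and 3, against 0.134, 0.183 and 0.146 per neutrophil-like barcode. Per barcode, Cd74 gave 0.249, 0.388 and 0.264 UMIs in neutrophil-like barcodes of libraries 1, 2 and 3, against 0.204, 0.502 and 0.307 in T-cell-like barcodes. H2-Aa gave 0.0625, 0.126 and 0.0555 UMIs, against 0.0664, 0.179 and 0.0835. Library 2 was highest for both genes in both classes, and neutrophil-like barcodes were lower than T-cell-like ones in every library for H2-Aa and in libraries 2 and 3 for Cd74. H2-Eb1 gave 0.124, 0.149 and 0.0906 UMIs per neutrophil-like barcode, against 0.0938, 0.158 and 0.0644, and so was higher in libraries 1 and 3. H2-Ab1 gave 0.184, 0.228 and 0.164 UMIs, against 0.146, 0.241 and 0.174, and so was higher in library 1 alone. As CPM, H2-Ab1, H2-Eb1 and Cd74 were called higher and H2-DMa and Ciita lower in neutrophil-like barcodes, where 65.1% of all genes were called in either direction. Neutrophil-like barcodes had a median of 900 UMIs, against 1424 in T-cell-like barcodes, and the part of this depth in the CPM differences was not tested. In epithelial-like barcodes Ciita and H2-DMa were lower than in T-cell-like ones and none was higher, where 28.1% were called lower.

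Within neutrophils the 4 chain genes parted from each other. The 426 barcodes of the state led by Gm12589 and Pdpn, the podoplanin gene, held 29, 30 and 55 UMIs of H2-Eb1 in libraries 1, 2 and 3, but 6, 7 and 5 UMIs of H2-Aa. This Pdpn state is a cluster and not a set of barcodes with Pdpn, since only 68 of all 6150 neutrophil-like barcodes held a Pdpn UMI. Per barcode H2-Eb1 gave 0.196, 0.265 and 0.333 UMIs in this Pdpn state, against 0.0938, 0.158 and 0.0644 in T-cell-like barcodes. Cd74 gave 0.182, 0.292 and 0.267 UMIs per barcode in the Pdpn state, lower in each library than the T-cell-like values above. H2-Ab1 gave 0.0743, 0.168 and 0.121 UMIs per barcode there, also lower in each library. Of the 4 genes H2-Eb1 alone lay above the T-cell-like level in all 3 libraries. NK-cell-like barcodes, a second class not known to transcribe class II, gave 0.0462, 0.383 and 0.164 H2-Eb1 UMIs, which is above the Pdpn state in library 2.

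Tested against the mean of the other 5 neutrophil states, H2-Eb1 was higher in the Pdpn state, with 268, 350 and 357 CPM against 81.0, 157 and 49.2 CPM (log2 1.74, SE 0.26, edgeR adjusted p = 1.8e-07). Only H2-Aa, H2-Ab1, H2-Eb1 and Cd74 passed the filter on low counts in neutrophil states, and the other 3 of the 4 were not called, where 16.1% of all genes were called higher. H2-Aa had log2 -0.68 (SE 0.38), H2-Ab1 -0.63 (SE 0.26) and Cd74 -0.10 (SE 0.19). H2-Eb1 stayed called in all 13 settings, with log2 values between 1.17 and 2.34 and adjusted p values up to 0.0149. Leaving out every barcode with a UMI of C1qa, C1qb, C1qc, Xcr1, Clec9a, Cd209a, Cd79a, Cd3d or Cd3e gave log2 1.96, and leaving out library 3, which held 55 of the 114 UMIs, gave log2 1.17.

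**Figure D4:**
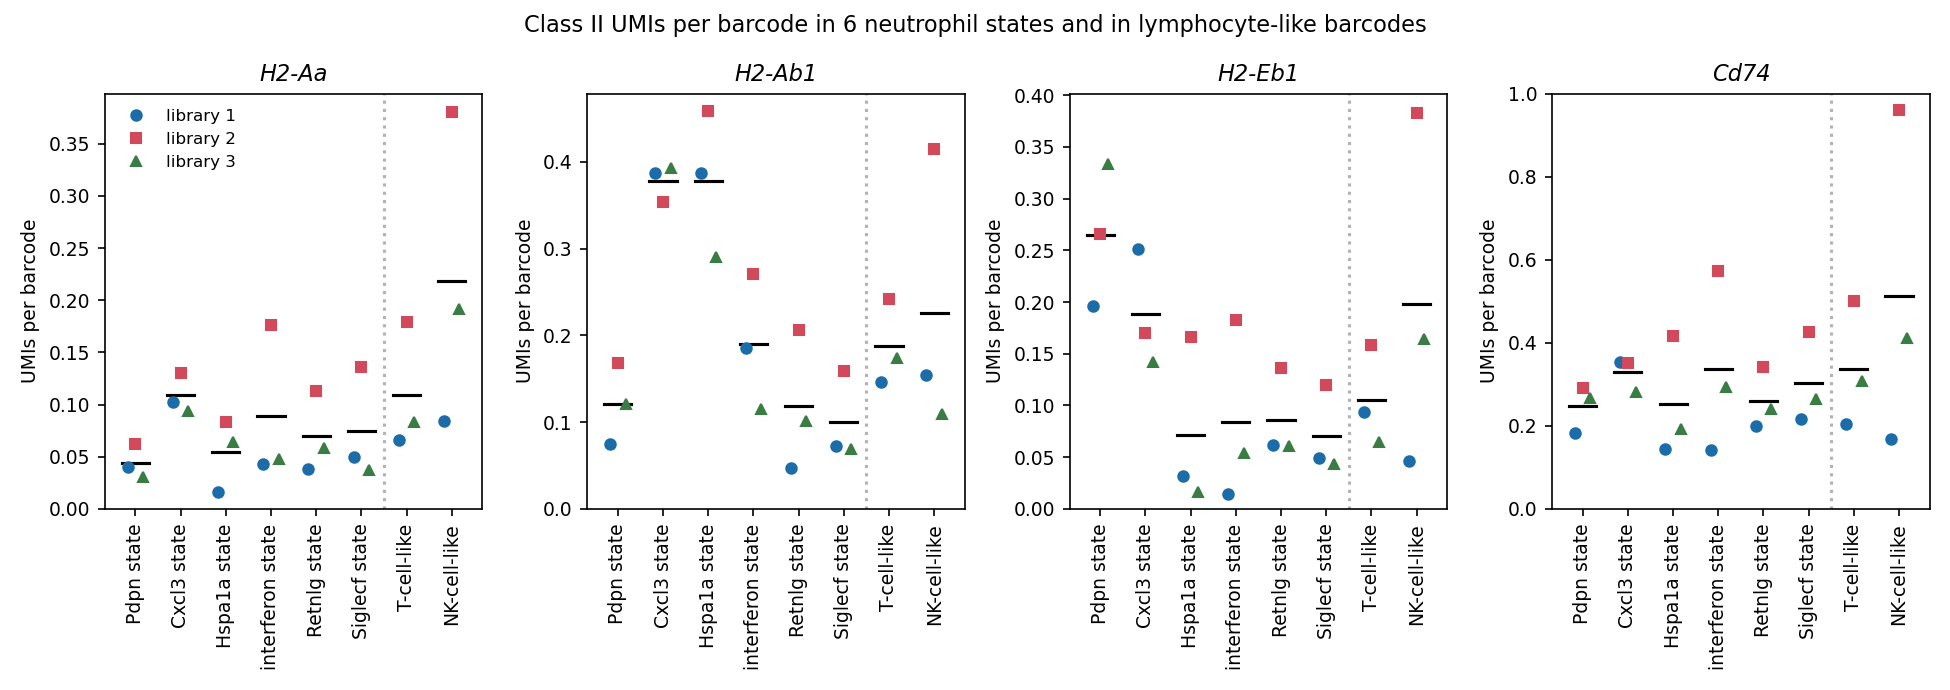
UMIs per barcode of H2-Aa, H2-Ab1, H2-Eb1 and Cd74 in 6 neutrophil states, left of the dotted line, and in T-cell-like and NK-cell-like barcodes, right of it, with 1 point for each of the 3 libraries and a line at their mean. H2-Eb1 is highest on average in the Pdpn state and H2-Ab1 in the Cxcl3 and Hspa1a states. H2-Aa and Cd74 in the 6 states stay within the range of T-cell-like barcodes over the 3 libraries or below it, with 1 exception. Cd74 in the interferon state of library 2 is at 0.572, against at most 0.502 in T-cell-like barcodes. Within libraries, the Cxcl3 state also lies above T-cell-like barcodes for H2-Aa in libraries 1 and 3 and for Cd74 in library 1. The Siglecf state does so for Cd74 in library 1.

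H2-Eb1 was out of its usual proportion to H2-Aa in the Pdpn state. H2-Eb1 made up 86.4% of the UMIs of the 2 genes in the Pdpn state (exact Clopper-Pearson 95% interval 79.3% to 91.7%), against 49.3% in T-cell-like (45.6% to 52.9%), 50.1% in macrophage-like and 48.9% in cDC2-like barcodes. By library the share in the Pdpn state was 82.9%, 81.1% and 91.7%. The Cxcl3 state, described below, also held more H2-Eb1 than H2-Aa, with 291 against 167 UMIs. Its H2-Eb1 gave 0.251, 0.171 and 0.142 UMIs per barcode in libraries 1, 2 and 3. These values lay above those of T-cell-like barcodes in each library and above that of the Pdpn state in library 1. Intervals cover counting error only. The antisense gene Gm20513 overlaps the start of H2-Eb1, at chr17:34293073-34308070 on the minus strand, and it gave 0 UMIs in the Pdpn state and 5 in all neutrophil-like barcodes.

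The H2-Eb1 UMIs were spread over 64 of the 426 barcodes. Of these, 42 held 1 UMI, 12 held 2 and 10 held 3 or more, with at most 8. The 64 barcodes held 0.266 Cd74 UMIs each, against 0.240 in the other 362, and 0.0156 H2-Aa UMIs, against 0.0470. Their C1q UMIs were 0.141 per barcode against 0.116. H2-Ab1 gave 0.188 UMIs per barcode with H2-Eb1, against 0.105 in the others. The H2-Aa value of the 64 barcodes rests on 1 UMI and the H2-Ab1 value on 12, against 17 and 38 UMIs in the others. At an equal depth of 600 UMIs the share of barcodes with an H2-Eb1 UMI was 9.54% ± 2.39 in the Pdpn state, against 3.04% ± 1.14 in T-cell-like barcodes (SD, n = 3), and without thinning it was 15.1% ± 0.725 against 7.08% ± 2.31, at median depths of 738.5 and 1424 UMIs.

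Markers of other cell types were also counted in the Pdpn state. The 11 macrophage markers, 10 of them detected, summed to between 435 and 806 CPM over libraries in the Pdpn state, against 312 to 496 CPM in T-cell-like barcodes. Against neutrophil-like barcodes as a whole the C1q genes, 3 of these markers, showed no excess. They gave 0.0676, 0.177 and 0.127 UMIs per Pdpn-state barcode in libraries 1, 2 and 3, against 0.134, 0.183 and 0.146 per neutrophil-like barcode. Pooled median depths were 738.5 and 900 UMIs. The 8 cDC1 markers summed to between 37.0 and 93.4 CPM with 5 detected, the 9 B-cell or plasma-cell markers to between 0 and 58.4 CPM with 4 detected, and none of the 9 NK markers was detected. The 8 cDC2 markers summed to between 860 and 1075 CPM with 4 detected, against 157 to 430 CPM in T-cell-like barcodes. Some genes of that list are not particular to cDC2-like barcodes. Outside them Ifitm1 held 750 CPM, Sirpa 98.0 CPM and Itgax 76.8 CPM, against 8.63 CPM for Cd209a and 4.33 CPM for Mgl2. Inside them Sirpa was lower, at 84.4 CPM, as was Cd1d1, at 3.97 CPM against 6.28 CPM outside, and Itgax held 128 CPM. The part of these transcripts in the H2-Eb1 level was not tested beyond the alternative that leaves such barcodes out.

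Genes of the class I pathway were lower in the same state. In the Pdpn state 7 of 11 class I pathway genes were lower and none higher, where 13.6% of all genes were called lower, with Tap1 (log2 -3.01), Psmb9 (log2 -2.30), Psme1 (log2 -1.54) and Psmb8 (log2 -0.98) in front. The mean of the other states includes the interferon state, where 9 of the 11 were higher (median log2 1.73). Its part in these differences was not tested. The Hspa1a state, described below, was alike, with 6 of the 11 lower and 1 higher. The class I median was -0.90 there and -0.77 in the Pdpn state, against -0.10 and 0.08 over all genes. Of 9 class II regulators tested in the Pdpn state 5 were not called and none was higher, and those lower include Irf1 (log2 -1.31), the interferon-gamma receptor gene Ifngr1 (log2 -1.29) and Jak1 (log2 -1.10). In the Hspa1a state, too, 4 of the 9 were lower and none higher. The endosomal protease genes Ctsd (log2 1.15) and Ctsl (log2 1.03) were higher in the Pdpn state and Ctss (log2 -1.13) was lower.

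H2-Ab1 had a pattern of its own. In the Cxcl3 state, 1546 barcodes led by Cxcl3, it gave 0.388, 0.354 and 0.393 UMIs per barcode in libraries 1, 2 and 3, against 0.146, 0.241 and 0.174 in T-cell-like barcodes. Against the mean of the other states it had 344, 305 and 264 CPM against 181, 275 and 127 CPM (log2 1.22, SE 0.14, edgeR adjusted p = 1.0e-11), and it stayed called in all 13 settings. H2-Eb1 (log2 0.94, SE 0.21) and H2-Aa (log2 0.74, SE 0.20) were also called in this state, where 28.1% of all genes were called higher, but H2-Aa was lost with library totals in place of TMM and without the block, and both were lost with the stricter barcode filter (500 genes or more, mitochondrial share of 5% or less). The ranges overlapped for all 3. The median over all genes was -0.11 with TMM scaling and -0.50 with library totals, and on the second scale H2-Ab1 was at 0.83. H2-Ab1 made up 77.8% of its UMIs and those of H2-Aa (74.7% to 80.7%), against 61.9% in T-cell-like (58.9% to 65.0%) and 54.4% in macrophage-like barcodes.

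**Figure D5:**
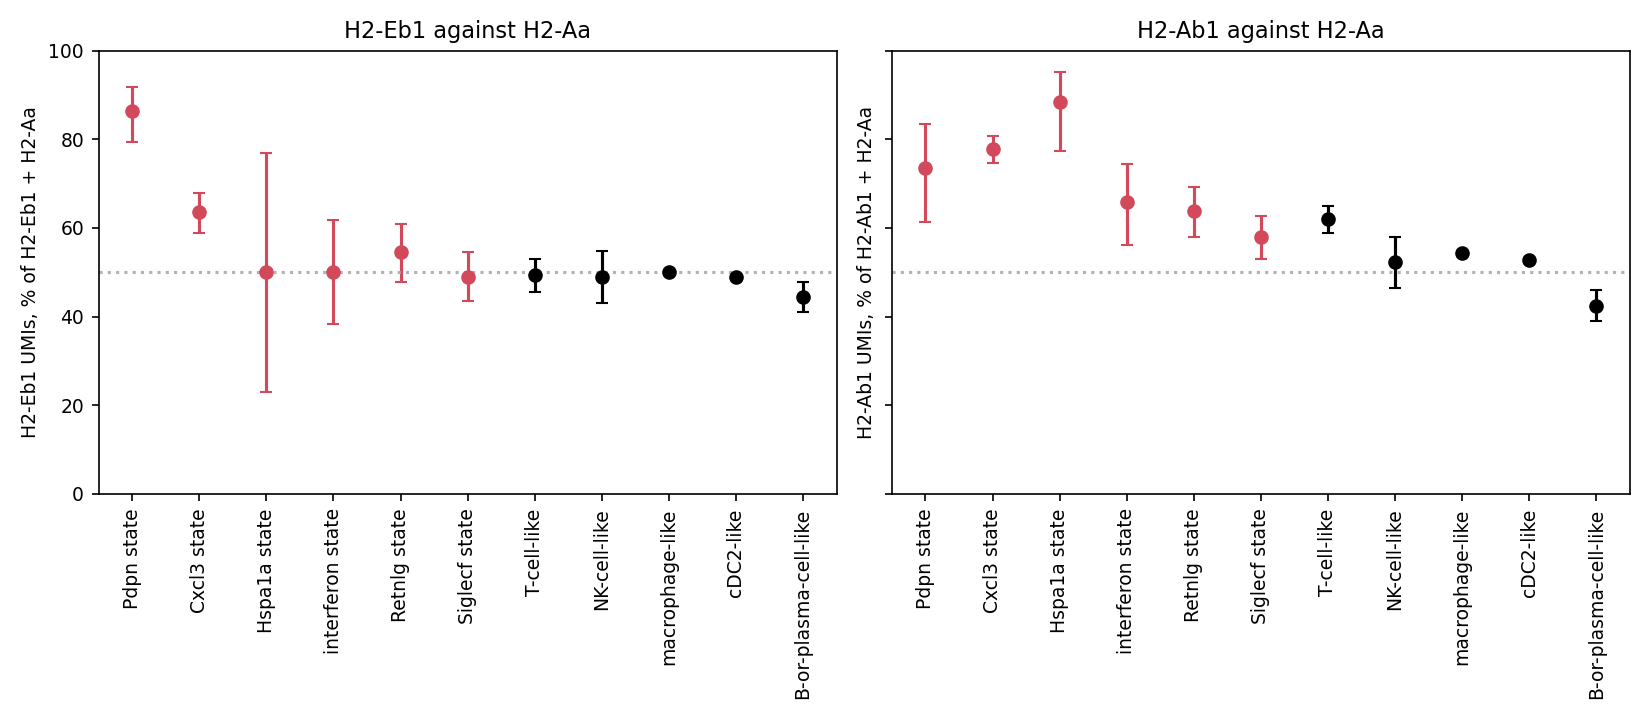
Share of H2-Eb1 (left) and of H2-Ab1 (right) among its own and H2-Aa's UMIs, as percent pooled over 3 libraries with exact 95% intervals, in 6 neutrophil states (red) and 5 cell classes (black). The H2-Eb1 share reaches 86.4% in the Pdpn state, and the H2-Ab1 share reaches 77.8% in the Cxcl3 state and 88.3% in the Hspa1a state, while the macrophage-like and cDC2-like shares lie near the dotted line at 50%.

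The small state led by Hspa1a, with 148 barcodes, held 24, 11 and 18 UMIs of H2-Ab1 and 1, 2 and 4 of H2-Aa. H2-Ab1 was called higher there (log2 1.04, SE 0.29, edgeR adjusted p = 0.00324), where 14.1% of all genes were called higher, and the call was lost without the block (log2 0.92) and without library 1 (log2 0.59). In the Siglecf state, with 2354 barcodes, H2-Ab1 (log2 -1.25, SE 0.16) and H2-Eb1 (log2 -0.92, SE 0.26) were lower, where 29.2% were called lower. Its H2-Ab1 gave 0.0724, 0.159 and 0.0696 UMIs per barcode, below the T-cell-like value in each library. In the state led by Ngp, Camp and Retnlg, H2-Ab1 was lower by log2 -0.49 (SE 0.18), where 14.5% were called lower. In the interferon state Cd74 was higher by log2 0.51 (SE 0.17), where 17.4% were called higher, and both calls were lost in several settings.

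No class II gene was called between neutrophil-like barcodes with and without a Pdpn UMI. Of all neutrophil-like barcodes, 27, 18 and 23 held a Pdpn UMI in libraries 1, 2 and 3, and they held 3, 2 and 11 UMIs of H2-Eb1, 10, 3 and 7 of H2-Ab1, 2, 2 and 1 of H2-Aa, and 5, 2 and 6 of Cd74. Ciita, H2-DMa and H2-DMb1 gave 0 UMIs in these 68 barcodes. After thinning to 600 UMIs, 11, 6 and 16 barcodes with Pdpn remained, so the sum of library 2 held only 6 barcodes. None of the 4 genes tested was called, where edgeR called 2.3% of all genes in either direction. At an unadjusted p under 0.05 edgeR gave 1 of the 4, Cd74. Cd74 had 152, 0 and 208 CPM in barcodes with Pdpn, against 244, 354 and 227 CPM in barcodes without it (log2 -1.66, SE 0.84, edgeR adjusted p = 0.382). H2-Eb1 had 152, 0 and 417 CPM against 128, 126 and 86.7 CPM (log2 0.33, SE 0.86), and came to -1.41 without library 3. The median over all genes in this split was -0.88 with TMM and -0.04 with library totals, so these log2 values are read against that median and not against 0. With library totals Cd74 was at -0.77 and H2-Eb1 at 1.22, and without library 2 they were at -1.16 and 0.74, none of them called. A class II difference between neutrophils with and without a Pdpn UMI was not detectable at this depth. In simulated counts of this split, the test recovered 3 of 93 genes changed 2-fold and 12 of 95 genes changed 4-fold. The absence of a call here therefore does not show that the levels are equal. In the same simulated counts 8 unchanged genes were called, so calls in this split are uncertain too.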

How the data were processed

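The deposited files hold UMI counts per gene and barcode as whole numbers, without normalisation. The submitters' processing notes name mm10, Cell Ranger and Seurat, without versions. Whether the 5′ or the 3′ chemistry, both found in the labels, was used is not settled. From the deposited counts, 22 barcodes with fewer than 200 genes and 107 with more than 10% mitochondrial UMIs were removed. Scrublet called 1 barcode (0.00698%), so the caller has not worked, and an alternative leaves out the 560 highest scores. Leiden clustering (resolution 1, neutrophils 0.5) used 2000 variable genes without the class II genes, 30 components and 15 neighbours (scanpy 1.11.5, Python 3.11.15). A name needed at least 3 markers, each in 10% of a cluster's barcodes and 2-fold above the other clusters. UMIs were summed per library and class, with at least 10 barcodes apart from the split by Pdpn, and tested with the quasi-likelihood test of edgeR 4.0.16 (R 4.3.3; TMM, filterByExpr, library as a block since both sums of a comparison come from 1 library, Benjamini-Hochberg adjustment over all genes at 0.05), checked on simulated counts. On those counts 2-fold changes were recovered for 3.23% of changed genes in the split by Pdpn and 24.2% in migratory-DC-like minus cDC-like barcodes. In the other comparisons simulated the share was 53.4% to 72.5%. Between 3 and 8 unchanged genes were called in each simulated comparison, with 8 in the split by Pdpn. Promoters are RefSeq's on GRCm38.p6, where H2-Ab1 and Ciita were not matched, and gene positions are GENCODE's. Named beside the 7 members were, of each further list, up to 4 called genes with the largest changes, and the 10 genes most like the chains. Members, markers and lists were chosen with earlier results of these data known.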

Additional observations from a re-analysis of the deposited data

Results flagged for a closer look

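Barcodes of 3 clusters that took no class name, and so entered no comparison, carried class II RNA far above the 471 ± 165 CPM of T-cell-like barcodes. A cluster of 291 barcodes led by S100a8 and S100a9 held 23324 CPM over the 7 genes, although these leading genes are neutrophil genes. A cluster of 450 barcodes led by F10, Hes1 and Arg1 held 34337 CPM. A cluster of 274 barcodes led by Nkg7 and Cd3g held 18470 CPM, although these leading genes are lymphocyte genes. The median doublet scores of the S100a8-led and Nkg7-led clusters were 0.131 and 0.115, against 0.0572 in the F10-led cluster, and their part was not tested. All unnamed barcodes together held 24.3% of the class II UMIs.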

How the results depend on the processing

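Over 147 pairs of gene and comparison, 94 kept their direction and side of the threshold in every setting that gave a value. The settings were leaving out each library in turn and those named here. All changes of direction of a called value, apart from 1 with library totals, came with another clustering or assignment of barcodes. When barcodes were assigned by their own markers, log2 differences turned to -0.12 for Ciita in plasmacytoid-DC-like minus T-cell-like barcodes and to 0.00033 for H2-DMa in macrophage-like minus monocyte-like barcodes. In cDC2-like minus macrophage-like barcodes they turned to -0.061 (H2-Ab1), -0.14 (H2-Eb1), -0.22 (Cd74), -0.55 (H2-DMa) and -0.24 (H2-DMb1). In cDC1-like minus cDC2-like barcodes they turned to 0.87 (H2-Aa), 0.93 (H2-Eb1), 0.96 (H2-DMa) and 0.90 (H2-DMb1). The number of the 7 genes called was then 2 for NK-cell-like minus T-cell-like barcodes, 5 for macrophage-like minus monocyte-like, 1 for cDC2-like minus macrophage-like, 4 for cDC1-like minus cDC2-like, 2 for migratory-DC-like minus cDC-like and 3 for B-or-plasma-cell-like minus cDC2-like barcodes. With class II genes kept in the clustering, H2-Eb1 was at -0.057 in macrophage-like minus monocyte-like barcodes, Cd74 at 0.56 in the Pdpn state and -0.093 in the interferon state, and H2-Ab1 at 0.14 in the Retnlg state. With neutrophils clustered at resolution 1 the Retnlg state had H2-Ab1 at 0.32 and Cd74 at 0.54. That state then held 256 barcodes, 205 of them among its 1300, and with class II genes kept 250, 249 of them shared, so these values rest on far fewer barcodes. At Leiden resolution 0.5 Cd74 was at -0.017 in the interferon state, and with library totals at 0.42 in the Siglecf state. The cause of these changes was not tested.

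The number of genes called was 3 without the filter on low counts for NK-cell-like minus T-cell-like barcodes, and 0 to 2 with 1 library left out. For macrophage-like minus monocyte-like barcodes it was 0 with DESeq2, 4 without that filter, 0 without the replicate block and 1 to 3 with 1 library left out. In the Pdpn state it was 2 with class II genes kept, without the filter and at neutrophil resolution 1, and 1 to 2 with 1 library left out. In the Retnlg state it was 0 with class II genes kept, without the filter, without the replicate block and with stricter barcodes, and 0 to 1 with 1 library left out. In the Cxcl3 state it was 1 with stricter barcodes, and in the Siglecf state 4 at neutrophil resolution 1 and 1 with stricter barcodes. In the interferon state it was 0 with DESeq2, without UMIs of other cell types, with class II genes kept, with library totals, without the filter, without the replicate block, without high doublet scores, at neutrophil resolution 1 and at Leiden resolution 0.5, and 0 to 1 with 1 library left out. In the Hspa1a state it was 2 without UMIs of other cell types, with class II genes kept, without the filter, without high doublet scores and at Leiden resolution 0.5, 0 without the replicate block and with stricter barcodes, and 1 to 2 with 1 library left out. Without the replicate block no other count of the 7 genes moved by over 1.5 times. Library totals in place of TMM moved the median of all genes to 0.49 against 0.03 (Siglecf state), 0.34 against 0.08 (Pdpn state), -0.24 against 0.05 (Retnlg state), -0.23 against 0.05 (interferon state) and 0.14 against -0.10 (Hspa1a state).

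Stricter barcodes gave 0.421 Cd74 UMIs per neutrophil-like barcode. The summed level was 47802 CPM in cDC1-like barcodes without high doublet scores and 47766 CPM at Leiden resolution 0.5, where it was 29476 CPM in monocyte-like barcodes. Of class II and C1q UMIs together, class II made up 82.3% in neutrophil-like, 79.8% in T-cell-like and 85.7% in Pdpn-state barcodes (means over libraries). With Apoe, Ms4a7 and Csf1r in place of the C1q genes, class II made up 58.9% in neutrophil-like, 63.8% in T-cell-like and 67.8% in Pdpn-state barcodes. Neutrophil-like and T-cell-like barcodes thus changed order. Pooled macrophage-like barcodes held 66.6% with the C1q genes and 55.9% with the other genes.

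Counts over all genes fell without library 2, against T-cell-like barcodes from 5490 to 3588 for neutrophil-like, 3537 to 2041 for monocyte-like, 2463 to 1511 for cDC1-like, 3620 to 2263 for cDC2-like, 2521 to 1523 for migratory-DC-like, 2693 to 1279 for plasmacytoid-DC-like, 860 to 317 for B-or-plasma-cell-like (554 without library 1), 761 to 389 for NK-cell-like and 4921 to 3260 for epithelial-like barcodes. Likewise they fell from 1458 to 817 (macrophage-like minus monocyte-like), 914 to 578 (cDC1-like minus cDC2-like), 1442 to 847 (migratory-DC-like minus cDC-like), 1792 to 1092 (plasmacytoid-DC-like minus cDC2-like) and 957 to 411 (B-or-plasma-cell-like minus cDC2-like, 578 without library 3). With barcodes assigned by their markers, neutrophil-like gave 3539, cDC2-like 1848 and NK-cell-like 454 against T-cell-like barcodes, cDC2-like minus macrophage-like 1123 against 2070, and plasmacytoid-DC-like minus cDC2-like 216. DESeq2 gave 771 against 1682 for the macrophage-like clusters. With stricter barcodes the Pdpn state gave 383 against 1013 (612 without library 3), the Retnlg state 683 against 1357, the Cxcl3 state 1108 against 1930, the Siglecf state 1308 against 2096 (3194 without the filter), the interferon state 458 against 754 (496 without library 3) and the Hspa1a state 620 against 1077 (671 without library 3). The split by Pdpn gave 82, and 5 with DESeq2, 53 without UMIs of other cell types, 3 at 900 UMIs, 25 with library totals, 130 without the filter, 232 without the replicate block, 0 with at least 2 Pdpn UMIs and 14 without library 1 or without library 3. It could not be fitted with stricter barcodes, where library 2 had 0 barcodes with Pdpn.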
